A study of Mus musculus with 2 samples.

Results

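Transcription factors of the endoderm and the mesendoderm were examined in single-cell RNA-seq data from mouse cells that were followed from the primed to the naive state. The 8 factors Eomes, Lhx1, Foxa1, Foxa2, Gata4, Gata6, Sox17 and Hhex were taken by symbol from the 33963 genes of the raw count table, and all 8 had reads. The table held 17720 cells in 5 populations, each of them 1 sample, pooled in 1 cDNA library. Naive mouse embryonic stem cells (mESCs) carried a Rex1-GFP reporter and gave 801 cells. Primed mouse epiblast stem cells (mEpiSCs) of the Oct4GIP line, which carries a GFP and puromycin transgene under Oct4 regulatory sequences and was maintained with FGF2 and Activin A and moved to mouse embryonic fibroblasts before treatment, gave 1826 cells. The same primed line was treated with the AMPK activator AICAR plus leukemia inhibitory factor (LIF) for 8 days (d8, 9627 cells) or 16 days (d16, 4315 cells). After 10 further passages in 2iL, the naive culture medium with kinase inhibitors and LIF, the treated line gave 1151 cells (d16+10p). The samples are labelled as strain 129/Ola. The naive cells are of another line than the treated cells, so that line and state cannot be told apart in comparisons with them.

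The mesendoderm is a transient tissue of the gastrulating embryo from which endoderm and anterior mesoderm arise. Nodal and activin signaling induces it, and Eomes, a T-box factor, and Lhx1, a LIM homeodomain factor, are early parts of its program. Foxa1 and Foxa2 are forkhead factors that open chromatin in endoderm and that are also made in the notochord and the floor plate of the neural tube. Gata4 and Gata6 are zinc finger factors of endoderm and heart, Sox17 is an HMG box factor required for definitive endoderm, and Hhex is a homeodomain factor of anterior endoderm that is also made in blood cells.

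The windows of 250 bases before the start of Lhx1, Eomes, Foxa1 and Foxa2 are shown. Lhx1 and Eomes had their highest level in the same cluster of cells, while the close paralogs Foxa1 and Foxa2 did not. Over all 17 clusters the pairs ran about equally close (Pearson's r of 0.79 and 0.77). The windows are RefSeq sequences of GRCm38.p6, found for 5 of the 8 factors. They were searched on both strands for the core letters AGATAA of GATA factors and the letters TGTTTAC of forkhead factors. The search also covered AGGTGT for T-box factors, AATCCACA for FOXH1 and ACAATG for SOX factors. Matches are in capitals, and none of these motifs contains another. Foxa2 has 3 such windows for different starts, of which the one before the outermost start is given.
Lhx1, chr11:84525535-84525784, minus strand: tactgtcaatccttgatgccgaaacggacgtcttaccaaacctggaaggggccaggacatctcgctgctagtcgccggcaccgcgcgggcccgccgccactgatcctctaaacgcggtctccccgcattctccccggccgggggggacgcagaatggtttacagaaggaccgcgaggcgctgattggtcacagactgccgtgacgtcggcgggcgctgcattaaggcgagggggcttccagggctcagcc
Eomes, chr9:118477939-118478188, plus strand: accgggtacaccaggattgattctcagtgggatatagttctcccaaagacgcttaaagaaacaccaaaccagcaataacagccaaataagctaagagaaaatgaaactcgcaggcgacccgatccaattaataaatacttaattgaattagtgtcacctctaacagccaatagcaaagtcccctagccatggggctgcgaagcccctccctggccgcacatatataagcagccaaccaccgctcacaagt
Foxa1, chr12:57546112-57546361, minus strand: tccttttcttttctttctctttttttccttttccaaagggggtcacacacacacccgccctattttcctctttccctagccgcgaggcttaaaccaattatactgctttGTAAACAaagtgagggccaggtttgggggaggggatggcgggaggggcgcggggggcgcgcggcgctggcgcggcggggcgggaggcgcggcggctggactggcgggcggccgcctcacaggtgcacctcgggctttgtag
Foxa2, chr2:148046970-148047219, minus strand: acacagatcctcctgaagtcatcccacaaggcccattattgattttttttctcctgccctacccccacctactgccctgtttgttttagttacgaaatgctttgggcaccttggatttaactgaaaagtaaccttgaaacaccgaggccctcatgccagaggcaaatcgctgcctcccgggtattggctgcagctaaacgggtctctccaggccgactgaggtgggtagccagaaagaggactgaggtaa
The forkhead letters of the Foxa1 window lie 141 to 135 bases before the start it belongs to, on the opposite strand, and 3.17% of 32851 windows of this length hold them on either strand. That start lies inside the annotated gene, since another Foxa1 transcript begins further upstream. The GATA, T-box, FOXH1 and SOX letters, held by 9.99%, 11.8%, 0.718% and 10.7% of all windows, were not in these 4 windows. Of the Foxa2 windows not shown, both of which lie inside the gene, 1 (chr2:148045465-148045714) holds the GATA letters, 183 to 178 bases before an internal start. The Lhx1 window has 64.8% G and C and that of Eomes 46.4%. The window of Lhx1 also contains the start of Lhx1os, a long noncoding RNA that is transcribed away from Lhx1 and begins 125 bases from it. In GENCODE M21 (GRCm38), Lhx1 lies at chr11:84518284-84525535, Eomes at chr9:118478212-118486132, Foxa1 at chr12:57540628-57546916 and Foxa2 at chr2:148042877-148046969. Gata4 lies at chr14:63198922-63271692, Sox17 at chr1:4490931-4497354 and Hhex at chr19:37434810-37440731. Eomes, Sox17 and Gata6 overlap a noncoding gene on the other strand (Gm33460, Gm37587 and 1010001N08Rik). Whether the counting used strand is not given in the sources used here, so reads of such partners cannot be told apart.

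Levels were computed as reads of a gene per 1000000 reads of all genes (CPM), summed over the cells of a group, with 95% Poisson intervals. The populations held between 17245249 and 179944974 reads, with a median of 10185 to 21551 reads per cell. Because there is 1 sample per population, no test was possible. Intervals cover counting error only, and since amplified reads were counted they are too narrow. Differences were called at 2-fold after adding 1 CPM.

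The primed population did not match its label as a whole. Cells were clustered without the 8 factors, and of the 1826 cells with the primed tag 420, or 23.0%, lay in the cluster of primed pluripotent cells (cluster 12, 97.4% primed). A further 436 lay in cluster 2 and 67 in cluster 9, both made mostly of d8 cells. Another 238 lay in cluster 6, of which 67.0% were d16 cells. Cluster 6 was led by Col3a1, and 5 of 6 fibroblast markers were higher in it. 500 primed cells had been loaded. Naive and d16+10p cells also lay partly elsewhere, with 63.9% and 77.2% in the Pou5f1-high cluster of their tag. More cells than were loaded were also found for naive (500 loaded), d8 (9000) and d16+10p (1000), but not for d16 (9000). Each comparison of the factors between populations is therefore also given for home cells, that is, the cells of a tag in its own Pou5f1-high cluster (for d8, the 9434 cells in clusters where d8 is the most frequent tag). The paper considered the Oct4-negative cells of its primed sample to be fibroblast feeder cells, and such feeders were also used during treatment. Feeder cells were not identified here. How the primed-tagged cells outside cluster 12 came by their tag was not tested. In sums over a whole population, fewer cells of a type and less RNA per cell cannot be told apart.

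Eomes and Lhx1, the mesendoderm factors, were highest in the primed and d8 populations. The naive cells had 9.22 CPM of Eomes, the primed cells 19.9 (interval 18.3 to 21.7), d8 cells 18.5 (17.9 to 19.1), d16 cells 8.97 and d16+10p cells 10.2. The naive cells had 10.4 CPM of Lhx1, the primed cells 31.9 (29.8 to 34.1), d8 cells 31.9 (31.1 to 32.7), d16 cells 11.9 and d16+10p cells 10.0. For both genes the intervals of primed and d8 overlapped, as did those of the 3 lower populations in neighbouring order. In home cells they parted. Eomes stayed at 22.8 CPM (19.9 to 25.9) in the 420 primed home cells, whereas Lhx1 was at 9.57 (7.74 to 11.7) there, beside 5.79 (4.55 to 7.27) in naive home cells and 7.49 (6.29 to 8.84) in d16 home cells. A macrophage-like cluster described below (cluster 8) had 9.81 CPM of Lhx1 (8.44 to 11.3) and 6.11 of Eomes.

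Foxa1 was highest at d16. At d16 it reached 67.3 CPM (65.2 to 69.5), while naive cells had 14.9, primed cells 26.4, d8 cells 25.5 and d16+10p cells 12.9. Foxa2 was at 4.46, 8.79, 7.11, 7.99 and 2.86 CPM in the same order of populations, and its intervals in primed, d16 and d8 overlapped in neighbouring order. In d16 home cells, the pluripotent part of that population, Foxa1 was at 12.5 CPM and Foxa2 at 2.53, so the d16 level of Foxa1 lay in the other d16 cells.

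Gata6 was highest at d8, with 11.3 CPM (10.8 to 11.8), while naive cells had 4.06, primed cells 8.61, d16 cells 7.11 and d16+10p cells 3.58. In primed home cells it was at 2.92 CPM (1.96 to 4.2). Gata4 and Sox17 were low throughout. From naive to d16+10p, in the order above, Gata4 had 1.74, 1.69, 1.58, 2.38 and 1.14 CPM, and Sox17 had 1.04, 2.58, 2.1, 2.04 and 1.30 CPM. Hhex was even, with 14.8, 14.1, 16.3, 14.2 and 14.1 CPM. For these 3 genes each interval overlapped that of the next population in the order of levels. In home cells Hhex was highest at d16, at 22.4 CPM (20.3 to 24.7), and lowest in primed, at 9.47 (7.65 to 11.6).

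**Figure D1:**
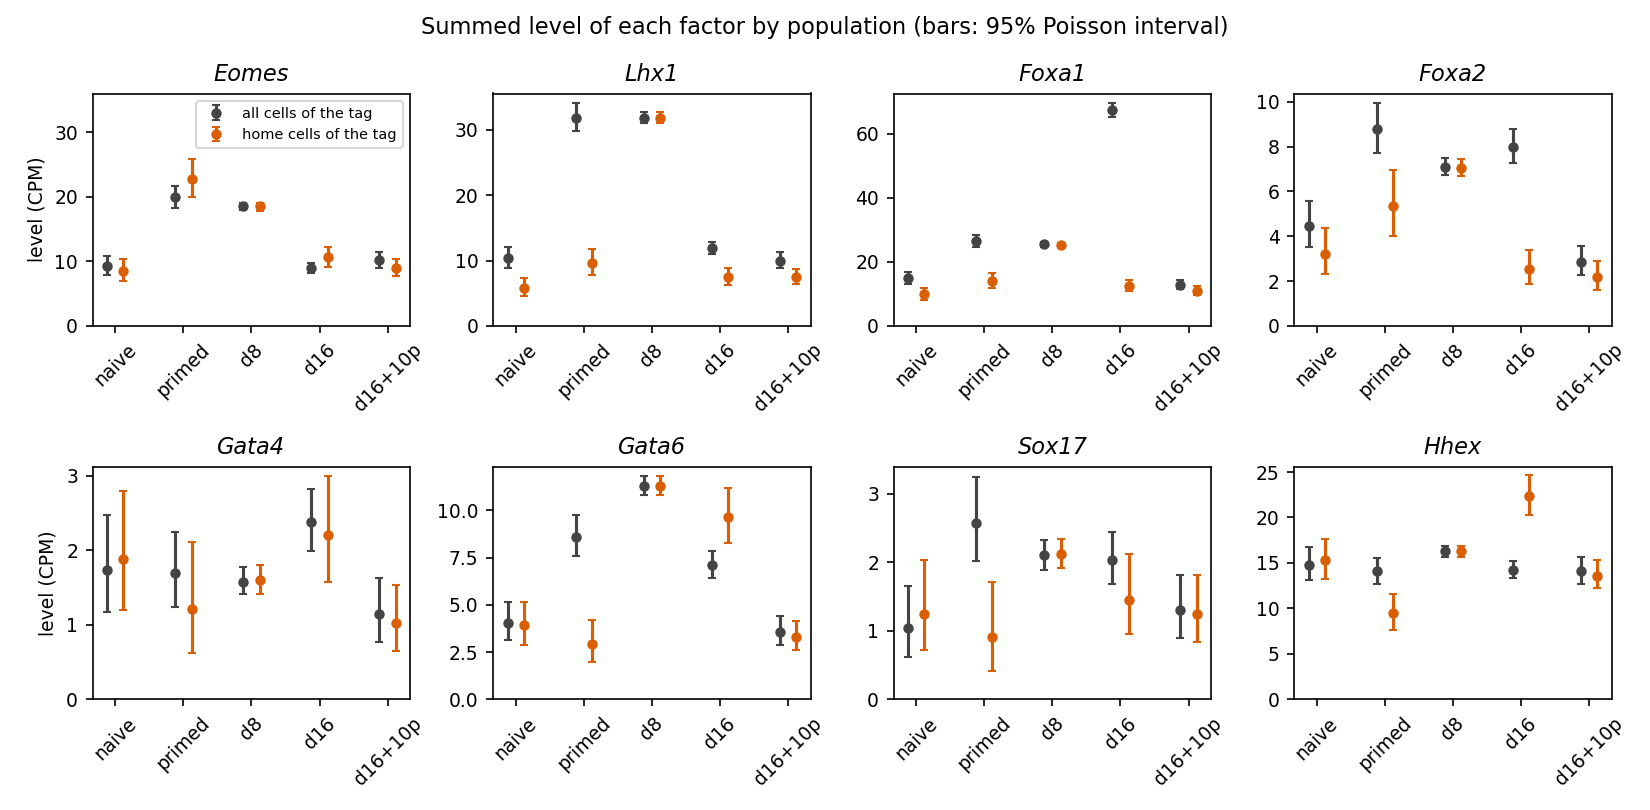
Level of each factor in CPM by population, for all cells of a tag (dark grey) and for its home cells (orange), with 95% Poisson intervals as bars. Lhx1 and Gata6 are lower in primed home cells than in all primed cells, and Foxa1 is high in all d16 cells (67.3 CPM) but not in d16 home cells (12.5 CPM).

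To ask whether treatment changed the factors, populations were compared in pairs. In d8 against primed 0 of 8 factors differed by 2-fold, while 6.71% of all genes with at least 5 CPM in either population did. Of the 8 factors 6 reached this minimum, and Gata4 and Sox17 did not. The log2 ratios ran from -0.27 for Foxa2 to 0.35 for Gata6. In home cells 2 of 8 did so, Gata6 and Lhx1, both higher in d8 with a log2 ratio of 1.64, beside 22.9% of all genes. In d16 against d8 there were 2 of 8, Foxa1 (log2 ratio 1.37) and Lhx1 (-1.35), beside 13.1% of genes, and Eomes (-0.97) was just inside 2-fold. Without the cells of cluster 9, Lhx1 was at -0.08 and no longer passed. In home cells the Foxa1 ratio turned to -0.96 and Foxa2 (-1.19) and Lhx1 (-1.95) passed 2-fold, beside 25.7% of genes.

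In d16 against primed 3 of 8 factors passed, Foxa1 (1.32), Lhx1 (-1.35) and Eomes (-1.07), beside 7.18% of genes. Without cluster 9 Lhx1 (-0.37) and Eomes (-0.75) were inside 2-fold. In home cells Eomes (-1.03) passed again, with Gata6 (1.44) and Hhex (1.16) higher at d16, beside 14.5%. In primed against naive Lhx1 (1.53) and Eomes (1.04) passed, beside 9.14%, and of these Eomes (1.32) did so in home cells, beside 13.8%. In d16+10p against naive 0 of 8 passed with all cells (1.76% of genes) or home cells (2.53%), and the log2 ratios with all cells lay between -0.50 for Foxa2 and 0.17 for Sox17. The count of factors past 2-fold was thus close to the share among all genes in home cells of d8 against primed, of d16 against d8 and of primed against naive. The comparisons share populations and are not independent.

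The levels by cluster showed where the reads lay. Clustering gave 17 clusters, and cluster 9 (785 cells, of which 687 were d8, 67 primed, 17 d16, 10 d16+10p and 4 naive) held the highest level of Gata6, Foxa2, Lhx1, Hhex and Eomes and the second highest of Gata4 and Sox17. Its leading genes were Pga5, Cfc1, Cer1, Lhx1, Dkk1, Irs4, Spink1, Gsc, Cyp26a1 and Gata6. Of 6 anterior mesendoderm markers 5 were at least 2-fold higher than in all other cells, with Cxcr4 as the exception, so the cluster is called anterior mesendoderm-like. Markers of primed epiblast (4 of 6) and of epithelium (3 of 6) were also higher there. Visceral endoderm markers were uneven in the d8 cells of the cluster, with Afp at 0.411 CPM and Cubn at 0.616, but Apoa1 at 35.7. Macrophage markers summed to 297 CPM against 29198 CPM in the macrophage-like cluster 8.

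In the 687 d8 cells of cluster 9, Lhx1 was at 397 CPM (385 to 410) against 11 in the other 8940 d8 cells. Eomes was at 157 CPM (149 to 165) against 10.5, and Gata6 at 121 CPM (114 to 128) against 4.99. Foxa2 was at 61.9 CPM (57.1 to 67.0) against 3.98, and Sox17 at 28.5 CPM (25.3 to 32.1) against 0.588. The factors with the smallest contrast were Foxa1, at 82.1 CPM against 22.2, and Hhex, at 63.4 against 13.6. Gata4 was at 16.8 CPM against 0.711. All 8 factors were past 2-fold in this direction, beside 3.84% of all genes, with a median log2 ratio of 3.72 against 0.12 over all genes. As cells were grouped by genes that vary with these factors, this is a description and no test. Against the primed home cells all 8 were higher as well, beside 13.2% of genes, from 2.48 for Foxa1 to 5.23 for Lhx1 on the log2 scale.

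In the 67 primed-tagged cells of cluster 9, Eomes was at 150 CPM (128 to 176), Gata6 at 131 (110 to 155) and Sox17 at 38.1 (27.1 to 52.0). These intervals overlapped those of the d8 cells of the cluster, and those of Foxa1, Foxa2, Gata4 and Hhex did so too. Lhx1 was higher in the primed-tagged cells, at 509 CPM (466 to 554). Cluster 9 made up 7.14% of d8 cells (6.63 to 7.67) and 3.67% of primed-tagged cells (2.85 to 4.64), and 0.499% of naive, 0.394% of d16 and 0.869% of d16+10p cells. It held 5.41% of d8 reads but 73.5% of the d8 reads of Sox17, 67.4% of Lhx1, 58.1% of Gata6, 57.5% of Gata4, 47.1% of Foxa2 and 46.1% of Eomes. For Hhex it held 21.1% and for Foxa1 17.5%. Among primed-tagged cells it held 58.6% of Lhx1 reads and 55.8% of Gata6 reads. Without its cells 0 of 8 factors differed by 2-fold in primed against naive, with Lhx1 at 0.77 and Eomes at 0.67 on the log2 scale. In home cells of these 2 tags, which also leave out cluster 9, Eomes was at 1.32. The primed-tagged cells outside clusters 9 and 12 had 10.4 CPM of Eomes.

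**Figure D2:**
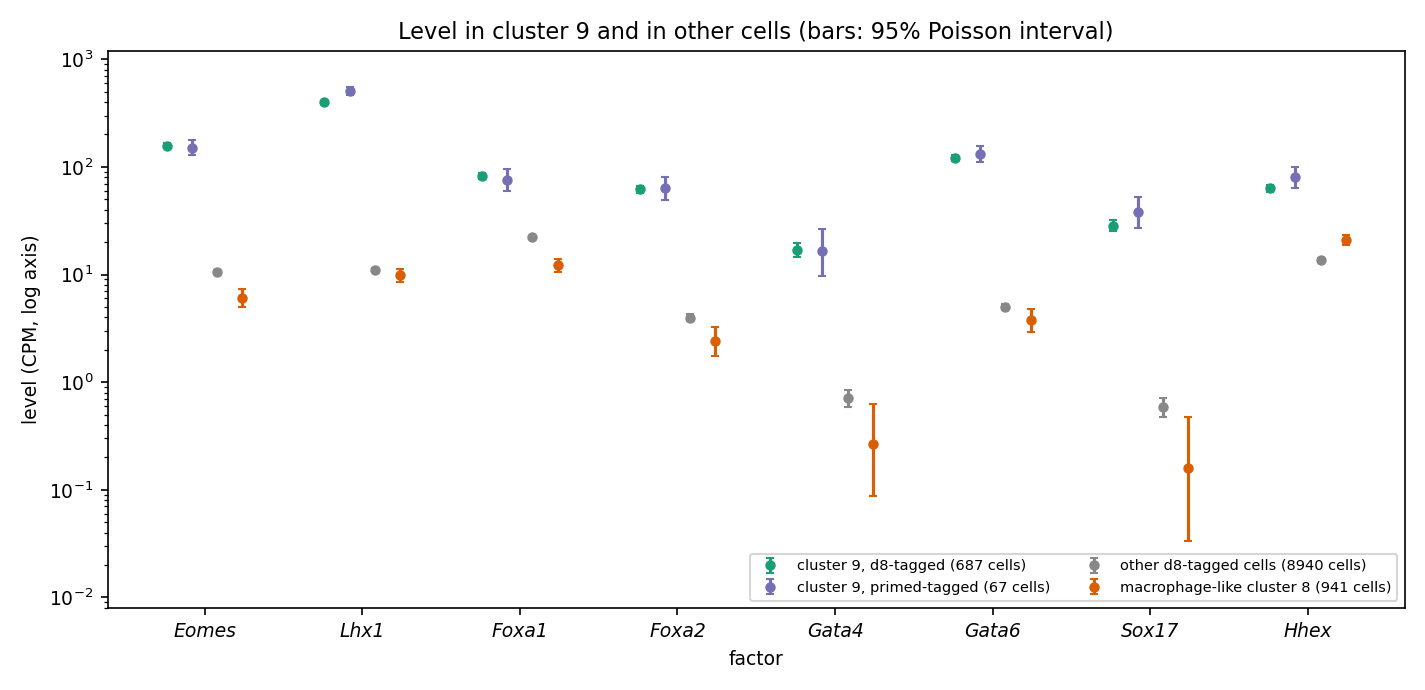
Level of each factor in CPM on a log axis in d8-tagged and primed-tagged cells of the anterior mesendoderm-like cluster 9, in the other d8 cells and in the macrophage-like cluster 8, with 95% Poisson intervals as bars. All 8 factors are higher in cluster 9, and its d8-tagged and primed-tagged cells lie close to each other.

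Cells that should lack most of these factors still had reads. In the macrophage-like cluster 8, 10.1% of cells had a read of Lhx1, 13.2% of Foxa1, 7.86% of Eomes and 4.04% of Gata6, at a median of 17378 reads per cell. In d8 cells outside cluster 9 the shares were 11.9%, 18.2%, 10.4% and 5.44% at a median of 15839 reads. After thinning each cell to 5000 reads, the shares for Lhx1 were 58.6% in d8 cells of cluster 9, 4.57% in other d8 cells and 2.65% in cluster 8. For Gata6 they were 32.5%, 1.96% and 1.81%. The d8 cells of cluster 10, the second highest cluster for Gata6, had 7.77% and a level of 21.5 CPM (18.6 to 24.8), against 3.75 CPM in cluster 8. Gata4 and Sox17 had a read in 13% and 15.7% of d8 cells of cluster 9 before thinning, and in 0.531% and 0.319% of cells of cluster 8. Hhex is no use for this purpose, because 24.5% of the macrophage-like cells had a read of it. In naive home cells the thinned shares of Lhx1 (2.17%), Gata6 (0.791%) and Foxa1 (4.35%) lay beside 2.65%, 1.81% and 4.21% in cluster 8. For Eomes it was 4.15%, beside 2.05%. Primed home cells had thinned shares of 4.15% for Lhx1, 1.46% for Gata6, 6.10% for Foxa1 and 8.29% for Eomes. Their level of Lhx1, 9.57 CPM, lay within the interval of cluster 8 (8.44 to 11.3).

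Foxa1 and Foxa2 parted in cluster 10. Foxa1 was highest in cluster 10, at 209 CPM, a notochord-like cluster of 740 cells, 607 of them d8, with T and Shh among its leading genes. Of 6 notochord markers 3 were higher there, while its d8 cells had Noto at 0.114 CPM and Foxj1 at 3.53. Foxa2, which is also made in the notochord, was at 10.2 CPM in cluster 10, against 60.4 where it was highest. The name is therefore tentative. In the d8 cells of cluster 10, 75.5% (71.8 to 78.8) had a Foxa1 read, whereas 7.91% had one of Foxa2, whose level was 8.43 CPM. Cluster 10 held 41.1% of all d8 reads of Foxa1. The second highest level, 139 CPM, was in the neural-like cluster 3, led by Fabp7, Rspo2 and Hepacam2, which made up 39.3% of d16 cells. It held 68.6% of d16 reads of Foxa1 and 55.8% of those of Foxa2, which was at 13.6 CPM in its d16 cells. The d16 cells of the Pou5f1-high clusters had 14.8 CPM of Foxa1 and 2.42 of Foxa2 against 98.1 and 11.3 in the other d16 cells. These were the 2 of 8 factors at least 2-fold lower there, beside 18.1% of genes. Hhex was higher in the Pou5f1-high cells, at 23.7 CPM against 8.64.

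Lhx1 and Eomes both had their second highest CPM in cluster 13, with 80.6 CPM (68.2 to 94.6) and 32.3 CPM (24.6 to 41.5). It is a small neural-like cluster of 269 cells led by Nhlh2, Dcx and Elavl3. Its cells came from all 5 tags, at a median of 5353 reads. For Eomes this rested on 60 reads in 17 cells, 6.32% of the cluster. In cluster 12 the level was 22.7 CPM (19.9 to 25.9), but 24.6% of cells had an Eomes read. Among cells thinned to 5000 reads the shares were 7.48% in cluster 13 and 8.08% in cluster 12. Lhx1 had a read in 20.8% of cells of cluster 13 and in 29.4% of cells of cluster 14 (39.5 CPM). Gata4 and Sox17 had no read in cluster 13, which allows up to 1.98 CPM. Over the 17 clusters the levels of Gata4 and Sox17 ran closest of all pairs (Pearson's r = 0.97), with Lhx1 and Eomes next (0.79) and Foxa1 and Foxa2 after them (0.77), while Foxa1 and Hhex did not run together (-0.11). Hhex had a second peak of 63.2 CPM in cluster 14 (170 cells, led by Krt15 and Tbx4), close to its 64.8 in cluster 9, where its intervals overlapped. These correlations are over clusters of 1 library with unequal depth and describe the pattern.

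**Figure D3:**
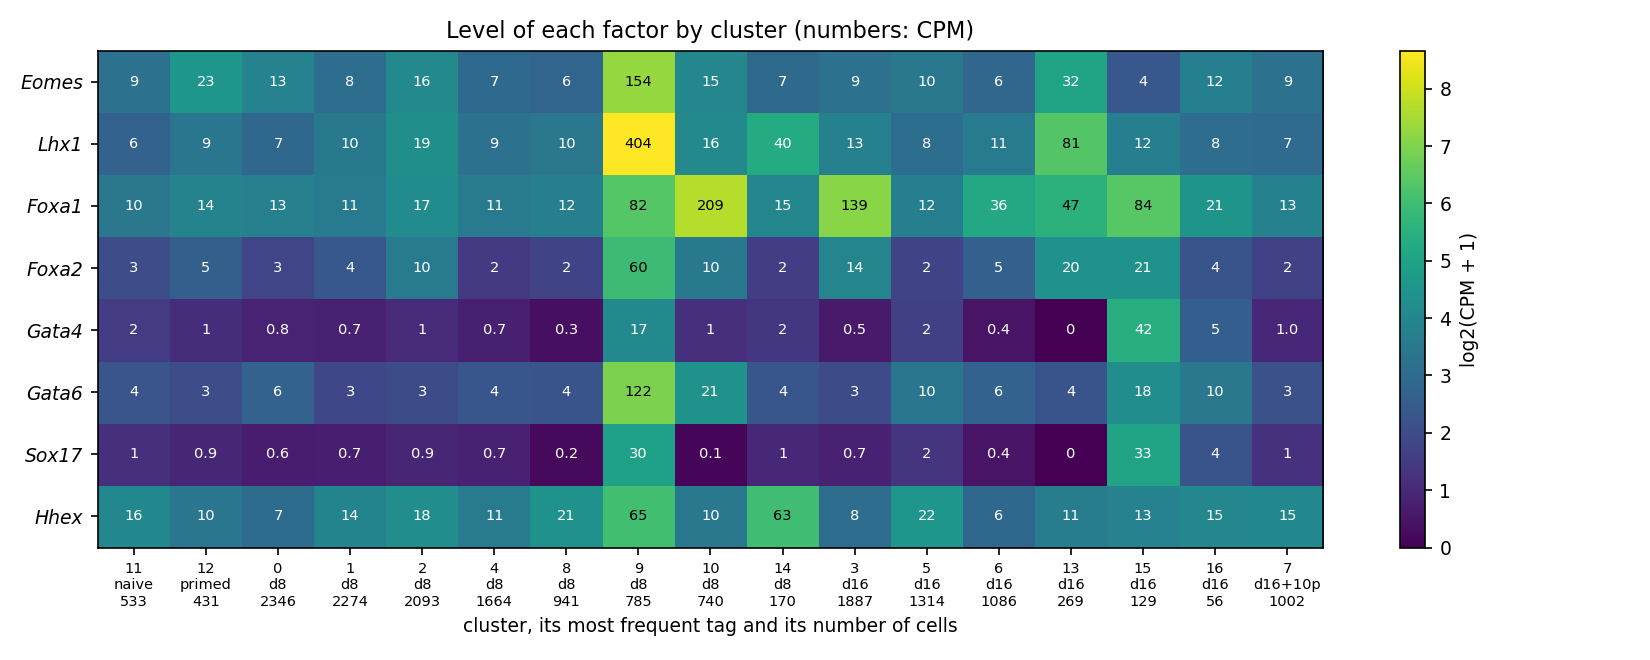
Level of each factor in 17 clusters made without the factors, as color on the log2(CPM + 1) scale and as CPM in numbers. Cluster 9 is high for all 8 factors, clusters 10 and 3 for Foxa1, cluster 13 for Lhx1 and Eomes, and cluster 15 for Gata4, Sox17 and Foxa1.

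Gata4 and Sox17 were highest in cluster 15, at 42.3 CPM (32.4 to 54.4) and 32.6 CPM (24.0 to 43.4). This cluster of 129 cells, 111 of them d16, was led by Hp, Fgg and Cxcl13 and had 3 of 6 epithelial and 4 of 6 parietal endoderm markers, so it is not named. Its d16 cells held 45.1% of d16 reads of Gata4 and 35.1% of those of Sox17. The cluster was not of 1 kind. At a resolution of 1.2 it split into 64 and 47 of these d16 cells, a split looked at after the values were seen. In the 47 cells Gata4 was at 94.7 CPM (71.7 to 123), Sox17 at 66.5 (47.5 to 90.5), Foxa2 at 34.9 and Gata6 at 33.2, but Eomes at 1.66 (1 read) and Lhx1 at 9.97. In the 64 cells Foxa1 was at 132 CPM (105 to 162), Sox17 had no read, which allows up to 5.58 CPM, and Gata4 had 3 reads. Of the 47 cells 11 had a Gata4 read, 12 a Sox17 read and 7 both. Their cluster at this resolution was led by Psca, S100g, Krt6a and Krt20. When the factors were allowed into the clustering, 46 of these d16 cells were placed with the cells of cluster 9. That run used the factors by which these cells stand out, so it gives no independent placement. Without the factors they were not placed with most d8 cells of cluster 9, neither at a resolution of 0.4 (a cluster of 3984 cells) nor at 1.2. Anterior mesendoderm markers summed to 79.3 CPM in their cluster at 1.2, against 828 CPM in cluster 9. Over all d16 cells the 10 cells with most reads carried 51.9% of Gata4 reads.

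Co-detection was then examined in single d8 cells, by comparing the number of cells with a read of both factors with the number expected within 10 bins of depth. Of 28 pairs 19 reached at least 2 times the expected number, beside 0.790% of pairs of a factor with any other gene found in at least 1% of d8 cells. Gata4 and Sox17 were found together in 42 cells where 3.41 were expected, a ratio of 12.3. Gata6 and Sox17 followed, with 104 cells against 15.8 (6.58), and Gata4 and Gata6, with 81 against 14.3 (5.68). Of the 171 cells with Gata4 and the 185 with Sox17, the shared cells are 24.6% and 22.7%. Lhx1 and Eomes shared 489 cells where 234 were expected (2.09). The lowest ratio was that of Foxa1 and Hhex, 1.10.

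The pairing rested on cluster 9. In d8 cells outside it 1 of 28 pairs reached 2 times the expected number, Gata4 and Sox17 with 3 cells against 0.866, and the median ratio was 1.19. Within the d8 cells of cluster 9 the median ratio was 1.17, and Gata4 and Sox17 kept a ratio of 2.50 (39 cells against 15.6). Sox17 with Gata6 had 1.99 there, Gata4 with Gata6 1.87, Gata4 with Hhex 1.65 and Sox17 with Hhex 1.52. Foxa1 with Sox17 (1.43) and with Gata4 (1.39) came next, and Gata6 with Hhex had 1.35. The lowest ratios were those of Eomes, 0.928 with Sox17 and 0.989 with Gata4. Counts per pair are small, and no interval is given because cells of 1 sample are no replicates.

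**Figure D4:**
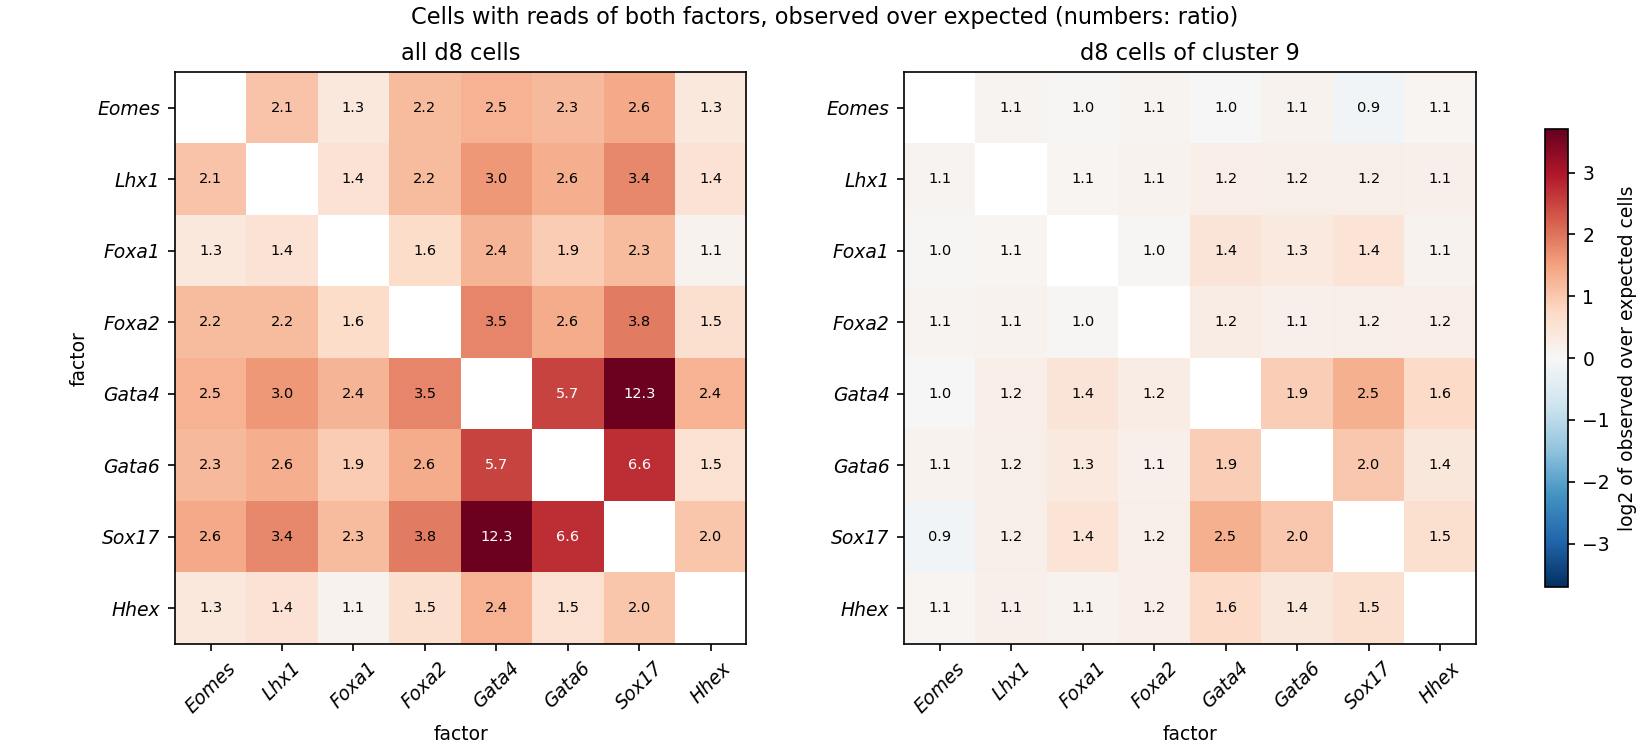
Number of cells with reads of both factors over the number expected within depth bins, for all d8 cells (left) and for d8 cells of cluster 9 (right), as ratio in numbers and as log2 in color. The ratios reach 12.3 over all d8 cells, and within cluster 9 the highest are 2.50 for Gata4 with Sox17 and 1.99 for Gata6 with Sox17.

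Cells with several factors were mostly in cluster 9. Reads of at least 3 of the 8 factors were found in 735 d8 cells, 7.63% (7.11 to 8.18, exact binomial), and 413 of these, 56.2%, lay in cluster 9. In that cluster 60.1% (56.3 to 63.8) of d8 cells and 55.2% (42.6 to 67.4) of primed-tagged cells had at least 3 factors. The share was 3.60% (3.23 to 4.01) in other d8 cells and 3.61% (2.51 to 5.01) in cluster 8. Naive cells had 5.24%, primed cells 4.82%, d16 cells 3.48% and d16+10p cells 5.21%. After thinning to 5000 reads it was 39.4% in d8 cells of cluster 9, 0.219% in other d8 cells and 0 of 831 cells in cluster 8, which allows up to 0.443% by the exact binomial interval. Of 167 d8 cells with at least 5 factors 153 lay in cluster 9, and 8 cells, all in it, had all 8. Depth differed in the other sense: d8 cells of cluster 9 had a median of 12112 reads against 15839 in the others. Cells with at least 3 factors had a median of 13104 reads within the cluster and 30252 outside it. Pairs of cells of the same tag caught together were not searched for.

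**Figure D5:**
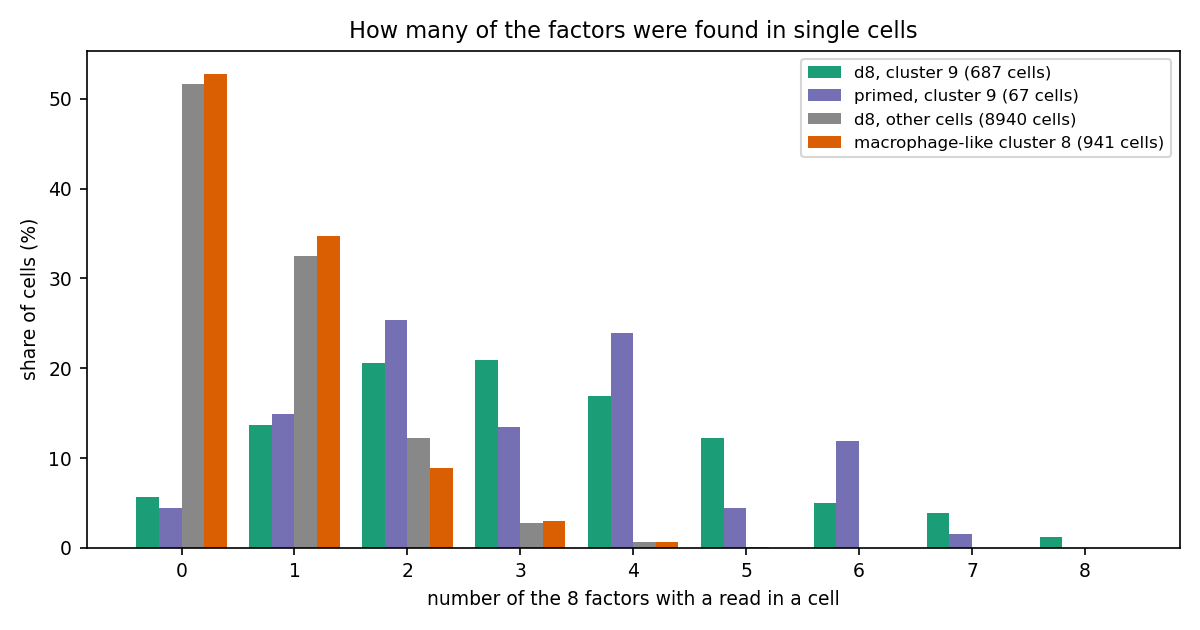
Share of cells in percent by the number of factors with a read, for d8-tagged and primed-tagged cells of cluster 9, other d8 cells and the macrophage-like cluster 8. Cluster 9 reaches from 0 to 8 factors per cell, with 60.1% of its d8 cells at 3 or more. The bars of other d8 cells are close to those of cluster 8, whose d8 cells are part of them.

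Related genes were examined from lists of partners. Of 14 inducers and partners of mesendoderm 11 had at least 5 CPM in d8 or primed, and of these 0 were 2-fold higher and 1 lower in d8. That was Tdgf1, the Nodal coreceptor, at 134 CPM against 326, and T, the T-box factor brachyury, was next with 73.9 against 102. Smad4 and Smad3, the signal transducers, had the highest log2 ratios, 0.20 and 0.18. Of 16 endoderm genes 8 were measured at this level and 0 passed in either direction. With home cells 5 of 8 endoderm genes were at least 2-fold higher in d8 and 0 lower, with a median log2 ratio of 1.61 against 0.13 over all genes, and 0 of 11 inducers were higher and 2 lower. There 22.9% of all genes passed 2-fold in either direction. The rise was not particular to endoderm genes. Of the markers, 7 of 8 for macrophages, 5 of 6 for fibroblasts and 4 of 4 for smooth muscle were higher too, but 0 of 5 neural ones. With all cells the highest log2 ratios were those of Apoe, a lipid carrier, 0.89, and the chemokine receptor Cxcr4, 0.82, and the lowest that of the adhesion molecule Epcam, -0.46. Of 10 relatives of the factors 2 were measured, and Lhx5 was lower in d8 (1.93 CPM against 5.06) while Gata3 was at 6.04 against 5.31. The median log2 ratio was -0.09 for inducers and 0.47 for endoderm genes, against -0.03 over all genes.

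In cluster 9 the same lists looked otherwise, with genes named after their values were seen. Among d8 cells 3 of 11 inducers were at least 2-fold higher there, Gsc (70.4 CPM against 1.63), Mixl1 (29.3 against 0.776) and Otx2 (242 against 15.7), and 0 were lower. Nodal was at 52.6 CPM against 42.9 and T at 38.0 against 76.0. Of 10 endoderm genes 5 were higher, Cer1 (162 CPM against 2.76), Apoa1 (35.7 against 1.95), Ttr (8.62 against 1.57), Epcam and Cldn6, and Trf was lower (6.57 against 14.3). Of the relatives Gata3 was higher, at 21.1 CPM against 5.18, and the hepatocyte factor Hnf4a was at 1.85 CPM. Gata4 and Sox17 were co-detected with Mixl1, Gsc, Cer1 and Apoa1 over all d8 cells at 4.83 to 6.16 times the expected number. These partners were named because they are high in cluster 9, and their ratios within the cluster were not computed. Pairing in single cells and shared placement in cluster 9 can therefore not be told apart for them.

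The genes whose levels over the 17 clusters were most like those of a factor were sought among 14653 genes with at least 10 CPM in a cluster. They were Mixl1 (r = 0.90), Ivns1abp and Barhl2 (both 0.88) for Eomes, and Lhx1os (0.96), Kcnj5 (0.91) and Irs4 (0.89) for Lhx1. For Foxa1 they were Fam210b (0.96), Dipk2a and Shh (both 0.93), and for Foxa2 Lrtm2 (0.91), Chrd and Foxp4 (both 0.88). Ehf, a factor of epithelial cells, appeared for Gata4 (0.89), Sox17 (0.90) and Gata6 (0.89). The others were Fxyd3 (0.89) and Bspry (0.87) for Gata4, Bpifb1 (0.90) and Scel (0.89) for Gata6, and Adrb1 and Slc44a4 (both 0.82) for Sox17. For Hhex they included Matn1 (0.83) and Mier1 (0.81).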

How the data were processed

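Single cells of 5 populations were tagged, pooled, captured with BD Rhapsody and amplified by TAS-Seq. The deposited table holds raw counts: integers, 1 row per gene and 1 column per cell. The authors trimmed reads with cutadapt 2.10, mapped with Bowtie2 2.3.4.1 to cDNA and ncRNA of GRCm38.p6 (mm10 in the submitters' notes), removed barcodes under the knee of the curve, assigned each cell its most frequent tag and removed, as doublets, cells whose first and second tag were least apart. The notes also name Seurat 2.3.4. Collapsing of duplicate reads by molecular identifier is not described, so counts are reads. No doublet caller was run here, and doublets of 1 tag can remain.

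The sequenced library of the tags was not analysed here. The population of each cell was read from the tag in its column name. All 17720 cells were kept, with 0 barcodes shared between tags. Clusters were made with Seurat 5.3.0 (R 4.3.3) with 1995 of 2000 variable genes, the factors left out, 56 dimensions, 50 neighbours and a resolution of 0.8. A cluster was Pou5f1-high at 25% or more of the highest Pou5f1 level with a read in at least 75% of cells, and the home of a tag is the Pou5f1-high cluster where it is most enriched. Log2 ratios carry a pseudocount of 1 CPM, and shares of genes past 2-fold are over genes that reach 5 CPM in 1 of the compared groups. Thinning to 5000 reads left out shallower cells, between 68 in naive and 755 in d8. Intervals are exact Poisson or binomial (Clopper-Pearson) at 95%, also where a count is 0. Ratios and co-detection were tested on simulated data. A marker counted as higher at 2-fold and 10 CPM. TMM factors are from edgeR 4.0.16. The factors, lists and cluster settings were chosen with earlier results of these data known. The text names all 8 factors, of each list the 2 genes with the largest log2 ratio in each direction in d8 against primed, and for each factor the 3 genes most alike over clusters, apart from items that are not reported here.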

Additional observations from a re-analysis of the deposited data

How the results depend on the processing

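No paired analysis was possible because each population is 1 sample, and no replicate could be left out. The count of factors past 2-fold was 0 of 8 in d8 against primed and 2 with home cells, where Lhx1 turned from no difference to a log2 ratio of 1.64. In d16 against d8 it was 2, and 1 with a pseudocount of 10 CPM, 4 with the mean of CPM per cell and 1 without the cells of cluster 9. With home cells Foxa1 turned to -0.96 and Foxa2 to -1.19. In d16 against primed it was 3, and 1 with a pseudocount of 10 CPM or without cluster 9, while with home cells Gata6 turned to 1.44 and Foxa1 to -0.14. In primed against naive it was 2, and 1 with a pseudocount of 10 CPM, TMM scaling, the mean of CPM per cell or home cells, 4 when cells were limited to 2000 to 8000 genes, and 0 without cluster 9. In d16 Pou5f1-high cells against other d16 cells the count of factors at least 2-fold lower was 2, and 1 with a pseudocount of 10 CPM. For d16+10p against naive it was 0 of 8 in each alternative run. The 8 of 8 for d8 cells of cluster 9 held in the 7 alternatives run, with other resolutions, with the factors in the clustering, thinned and without the deepest 5% of cells. The 19 pairs fell to 1 without cluster 9 and to 1 within it, and were 19 to 27 in the other alternatives. The share of d8 cells with at least 3 factors was 7.63%, and 1.80% when 3 reads were required, 3.09% after thinning, 7.05% without the deepest 5% of cells and 3.60% without cluster 9. For these moves the cause was not tested, apart from the fewer cells or reads that an alternative leaves. Of 492 log2 ratios of single factors under an alternative, 457 kept their direction and side of 2-fold, 15 fell inside it, 15 passed it and 5 turned. The alternative limited to factors with at least 5 CPM reused the main ratios. Its ratios are among the 457 by construction and show no stability. Alternatives that leave out cluster 9, and those for cluster 9 itself, were chosen after seeing the data. Gata4 and Sox17, with 18 to 72 reads each in the naive, primed and d16+10p populations, are limited by depth.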
